A study of Mus musculus with 43 samples.

Results

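The genes described here are 38 genes of the autophagy machinery, out of 52636 genes in the deposited tables, read by RNA sequencing in 24 organoid libraries and 19 fibroblast libraries from the mouse colon. They were chosen by name, with no threshold on their values, and each name matched a single row of both tables. By role they comprised 5 genes of the initiation complex, 6 of the class III PI3-kinase complexes, 7 of lipid supply and PI3P binding, 10 of the conjugation systems, 5 of the Atg8 family and 5 cargo receptors. A gene entered a test when it reached 200 CP20M, which is 10 CPM, in at least 2 libraries of the fit, and 37 of the 38 genes passed in every fit. The exception was Atg10, the conjugating enzyme for Atg12, which stayed at 0 to 109 CP20M in the organoids and 84 to 185 in the fibroblasts.

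Macroautophagy encloses cytoplasm in a growing double membrane and delivers it to the lysosome. The Ulk kinase complex starts the process, a lipid kinase complex built around Becn1 and Pik3c3 marks the site with PI3P, and Atg2 and Atg9 proteins bring lipid to the membrane. A pair of ubiquitin-like systems then couples the Atg8 proteins, which are the LC3 and Gabarap families, to the membrane, where receptors such as Sqstm1 (p62) tether cargo. The machinery is run largely by protein modification and turnover, so transcript levels do not measure autophagic flux. In the intestinal epithelium it is known above all for the Atg16l1 and Atg5 requirement of Paneth cells.

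Colonoids came from Vil-cre/ERT2 mice with wild-type Apc and tumoroids from Vil-cre/ERT2 mice homozygous for floxed Apc, both given tamoxifen in vivo, so the controls carry the Cre and received tamoxifen too. Vil-cre/ERT2 acts in the intestinal epithelium, and each line came from a single mouse of about 2 months. The 3 colonoid lines (M41, M40 and M1) and the 3 tumoroid lines (F11, M3 and M14) were kept for 6 days with vehicle (Ve, 0.5% DMSO), regorafenib at 4 µM (R4) or 8 µM (R8), or 5-FU at 1 µM. Primary fibroblasts from the colon of C57BL/6 mice, in the lines M3, M3(2), M1(2) and M11, were kept for 7 days with Ve, R4, autogramin-2 at 1 µM (A1) or both (R4A1), and all but M11 also with regorafenib at 10 µM (R10). Regorafenib inhibits many kinases, 5-FU blocks thymidylate synthesis, and autogramin-2 inhibits the cholesterol transfer protein Gramd1a, which acts in autophagosome formation. The organoid line M3 and the fibroblast line M3 are different mice. Values below stand in the order of lines given here, and within a group each library is a different line. The main tests take libraries as units with no term for the line, so the R4 and R8 libraries of a line count separately.

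Values are CP20M, counts scaled to 20000000 per library, so that 20 CP20M is 1 CPM. Depth, estimated from the steps of the values, ran from 512591 to 22369830 reads in the organoids and from 7949841 to 12825912 in the fibroblasts. The colonoid M41 library with R4 stood apart: it is the shallowest, 1 read there is 39.017 CP20M against at most 4.575 elsewhere in that table, and its mean correlation with its group was 0.795. Results that rest on it are given with and without it. A value written as x ± y before an adjusted p is a limma log2-fold change of CP20M + 20 with its SE. Epithelial markers (Epcam, Cdh1, Krt8 and others, 7 in all) summed to between 69737 and 181028 CP20M in the organoids, where the 8 fibroblast markers reached at most 123. In the fibroblasts the fibroblast markers summed to between 110998 and 186156 CP20M and the epithelial markers to at most 309. These are bulk samples, so fewer cells of a type and less RNA per cell cannot be told apart.

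With vehicle, the cargo receptor Sqstm1 stood highest of the 38 genes in all 3 kinds of culture and Gabarap, an Atg8 family protein, stood second. Per kilobase of exon, Sqstm1 was at 3830 ± 833 CP20M in colonoids, 2900 ± 1270 in tumoroids (SD, n = 3 each) and 6870 ± 889 in fibroblasts (SD, n = 4). Gabarap was at 1980 ± 351, 1210 ± 185 and 2490 ± 176 CP20M per kilobase, so the top of the order was shared, and the gap between the pair was wider than their summed SD in each culture. Next in colonoids came Atg101, a stabilizing subunit of the initiation complex, at 1410 ± 105, and Vmp1, a lipid scramblase of the endoplasmic reticulum, at 1110 ± 240; these neighbours did not differ beyond their summed SD. In tumoroids Gabarap, Vmp1 and Atg101 did not differ beyond theirs, and in fibroblasts the third place was that of the Gabarap paralog Gabarapl1, at 1490 ± 18.3. At the bottom, Atg10 was at 36.9 ± 13 in colonoids and 46.2 ± 8.16 in tumoroids. In fibroblasts the lowest place was that of the Atg8 protease Atg4d, at 59.1 ± 5.11. Atg4d did not differ there beyond the summed SD from Atg16l1 (63.9 ± 2.48) or Atg10 (65.2 ± 11.2). In tumoroids Atg10 did not differ so from Atg4a (56.4 ± 16.3). Lengths are the union of all annotated exons of a gene, and the places depend on them. Undivided, Atg4d was at 429.2 CP20M in fibroblasts with vehicle and Atg10 at 112.

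Several members held different places in epithelium and fibroblasts, which are described side by side with no test, since the tables were sequenced and scaled separately. Atg101 ranked 3 in colonoids and 4 in tumoroids, at 1140 ± 326 CP20M per kilobase there, and 16 in fibroblasts, at 232 ± 28.1. Atg4d ranked 17 and 20 in the organoids, at 243 ± 16.7 and 221 ± 8.49, and 38 in fibroblasts. The kinase Ulk2 went the other way, from 110 ± 9.68 and 93 ± 17.9 in the organoids, ranks 31 and 35, to 274 ± 61.7 and rank 12 in fibroblasts. Uvrag, the subunit that directs the PI3-kinase complex to endosomes, was at 76.9 ± 2.76, 82.1 ± 2.94 and 227 ± 58.8.

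**Figure D1:**
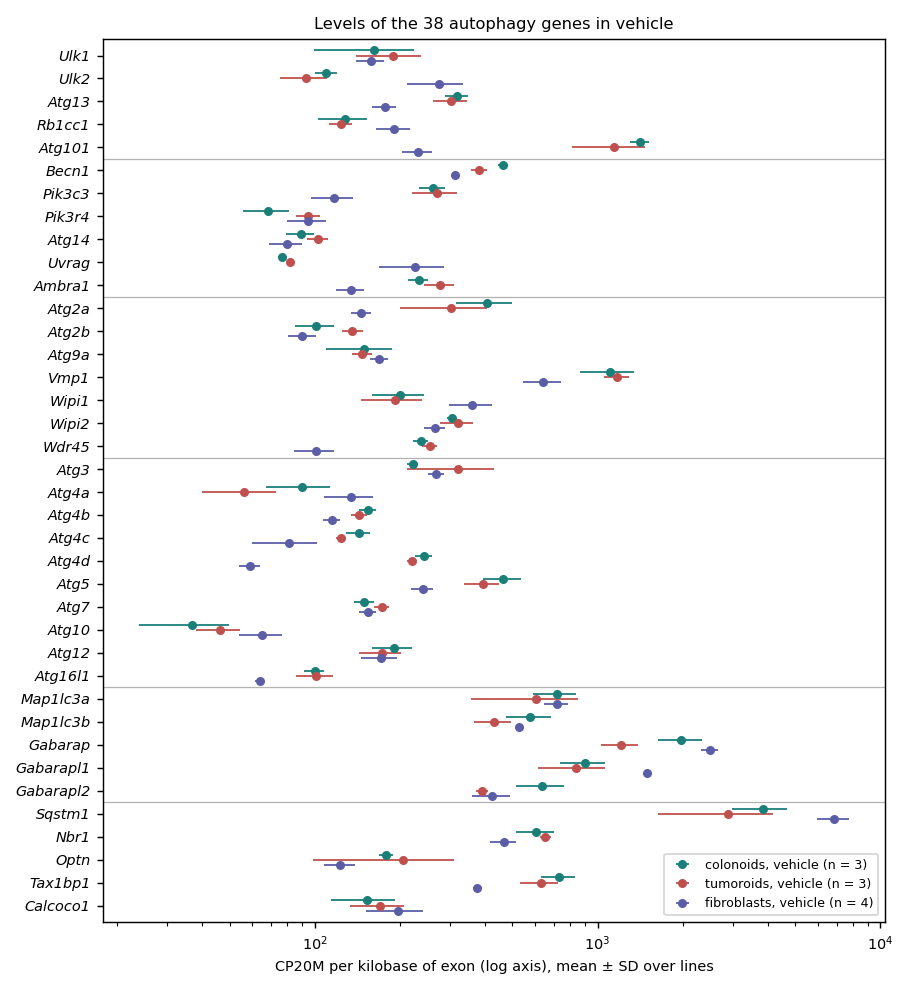
Level of each of the 38 genes with vehicle, in CP20M per kilobase of exon on a log axis, as mean ± SD over 3 colonoid, 3 tumoroid and 4 fibroblast lines, with grey lines between the roles. Sqstm1 and Gabarap lie farthest to the right in all 3 cultures, and Atg101, Atg4d, Ulk2 and Uvrag show gaps between organoids and fibroblasts wider than their error bars.

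Promoter windows were read from RefSeq (GRCm38.p6), 250 bases before to 50 after the transcript start, for 32 of the 38 members; Atg12, Atg16l1, Becn1, Map1lc3a, Pik3c3 and Rb1cc1 had none. Both strands were searched for the element of the MiT/TFE factors, master regulators of lysosomal and autophagy genes, and for the antioxidant response and ATF4 elements. The MiT/TFE core CACGTG occurred in 4 of 32 members (12.5%: Atg14, Atg3, Atg5 and Atg7) against 8.09% of 27025 genes, and its extended form TCACGTGA, which contains the core, in Atg3 alone (3.12% against 1.12%). TGACNNNGC, the antioxidant response element, occurred in 5 members (15.6%: Atg13, Map1lc3b, Tax1bp1, Ulk2 and Vmp1) against 14.0% of genes. TGATGNAA, the ATF4 element, occurred in 0 of 32 members and 4.51% of genes. Shares among the members are thus given on 32 genes and lie near those of all genes; a match is a description of letters, not of binding.

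Of the members with an antioxidant response element, Tax1bp1, Ulk2 and Vmp1 did not pass for regorafenib over both genotypes in the main test. By estimate Ulk2 was higher there, and Tax1bp1 and Vmp1 were lower. The windows of Atg13 and Map1lc3b are shown because both genes fell with regorafenib in the organoids and both hold an antioxidant response element, and that of Atg3 because it holds the extended MiT/TFE element. Each is written 5′ to 3′ along the gene, with the matched letters in capitals; in Atg13 the element lies on the opposite strand, and in Atg3 the capitals mark the core at its first place and the whole extended form at the second.
Atg13 chr2:91710543-91710842 (minus strand): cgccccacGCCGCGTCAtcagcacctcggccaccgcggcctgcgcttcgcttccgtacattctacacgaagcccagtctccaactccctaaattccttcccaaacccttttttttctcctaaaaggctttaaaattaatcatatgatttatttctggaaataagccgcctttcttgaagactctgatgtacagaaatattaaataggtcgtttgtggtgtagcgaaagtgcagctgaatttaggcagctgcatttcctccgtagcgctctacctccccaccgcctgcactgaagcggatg
Map1lc3b chr8:121590188-121590487 (plus strand): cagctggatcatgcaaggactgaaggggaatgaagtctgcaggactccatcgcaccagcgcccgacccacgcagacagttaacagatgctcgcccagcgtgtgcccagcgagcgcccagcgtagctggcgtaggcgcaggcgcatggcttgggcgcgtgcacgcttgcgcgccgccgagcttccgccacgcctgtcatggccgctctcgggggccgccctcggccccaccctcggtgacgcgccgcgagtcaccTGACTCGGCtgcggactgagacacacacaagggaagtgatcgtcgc
Atg3 chr16:45158579-45158878 (plus strand): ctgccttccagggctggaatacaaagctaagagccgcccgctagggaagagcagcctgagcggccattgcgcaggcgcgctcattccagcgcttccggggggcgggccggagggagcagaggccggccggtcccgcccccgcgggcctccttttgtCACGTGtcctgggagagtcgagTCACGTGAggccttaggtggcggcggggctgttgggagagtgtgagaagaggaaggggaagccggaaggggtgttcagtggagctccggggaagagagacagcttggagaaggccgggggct

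Regorafenib lowered 7 and raised 1 of the 37 tested members over the 4 regorafenib groups against the 2 vehicle groups (limma, adjusted p under 0.05 over 11320 genes). Atg13 and Atg101 of the initiation complex, the lipid transfer protein Atg2a, the PI3P binder Wdr45, the proteases Atg4c and Atg4d and the LC3 gene Map1lc3b fell, while Gabarap rose. The 8 members called are 21.6% of those tested, against 26.5% of all genes; 15.3% of all genes were called lower and 11.2% higher. The share of members called was thus below that of all genes, and the median log2-fold change was 0.04 over the members and -0.10 over all genes. With TMM scaling, which moved the median of all genes by 0.07, 5 members were higher and 6 lower of 11 called, against 28.3% of all genes. The higher share of all genes called went from 42.3% to 53%. Those higher with TMM were Gabarap, Ulk2, Uvrag, Nbr1 and Calcoco1. With edgeR the same members were higher and 7 were lower, against 33.5% of all genes. Without the low-depth library 16 members were called, 8 higher and 8 lower, against 43.4% of all genes. Atg13, Atg2a, Wdr45, Atg4c and Atg4d kept their calls when any 1 line was left out, whereas Map1lc3b lost its call without M3 or M14, Atg101 without M40, F11 or M14, and Gabarap without M40, M1, F11 or M14.

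Within the initiation complex, Atg13 and Atg101 fell and the kinases Ulk1 and Ulk2 did not pass in the main fit. Atg13 (chr2:91674618-91710576), the adaptor that links the Ulk kinases to the complex, was in colonoids at 1263, 1517 and 1397 CP20M with Ve, 664, 1179 and 1230 with R4 and 689, 643 and 742 with R8. In tumoroids it was at 1150, 1309 and 1513 CP20M with Ve, 963, 1192 and 1148 with R4 and 734, 865 and 899 with R8. All R8 libraries lay below all Ve libraries of their genotype, and R4 libraries did so in colonoids only. Over both genotypes Atg13 was at 0.66-fold of vehicle (log2-fold change -0.60 ± 0.13 (SE), adjusted p = 0.00287), lower in 6 of 6 lines. Atg101 (chr15:101284272-101290945) was in colonoids at 2101, 2432 and 2224 CP20M with Ve, 3239, 1583 and 1402 with R4 and 647, 907 and 1318 with R8, and in tumoroids at 1688, 1376 and 2393 CP20M with Ve, 1521, 1465 and 1260 with R4 and 1169, 1183 and 1052 with R8. With R8 no library overlapped Ve in either genotype, while the highest Atg101 value of all, 3239, was that of the low-depth library with R4. Atg101 fell by 0.61 ± 0.18 (SE) on the log2 scale (adjusted p = 0.0202, limma), and without that library the value was -0.71 ± 0.14 (adjusted p = 0.00103). With TMM scaling Atg101 was at -0.54 (adjusted p = 0.071) and no longer passed, nor did it with edgeR. Ulk1, the initiating kinase, ranged over 729 to 1545 CP20M with Ve and 1084 to 1759 with regorafenib (log2-fold change 0.24 ± 0.15 (SE), adjusted p = 0.248), so the groups overlapped. Ulk2, at 0.26 ± 0.13 (adjusted p = 0.149), passed without the low-depth library at 0.33 ± 0.10 (adjusted p = 0.0138). With all libraries kept, Ulk2 was called higher with TMM scaling and with edgeR.

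No member of the PI3-kinase complexes passed in the main fit (6 tested, median log2-fold change 0.07). Uvrag came nearest, at 0.24 ± 0.10 (adjusted p = 0.103), and was higher in 6 of 6 lines. Its values were 723, 687 and 675 CP20M with Ve, 508, 890 and 758 with R4 and 1101, 1028 and 925 with R8 in colonoids, and 757, 757 and 711 CP20M with Ve, 750, 753 and 736 with R4 and 949, 960 and 1031 with R8 in tumoroids. The R8 libraries were above Ve in both genotypes, and without the low-depth library Uvrag passed at 0.29 ± 0.06 (adjusted p = 0.00173), as did Pik3r4, the Vps15 subunit, at 0.36 ± 0.12 (adjusted p = 0.0275). With all libraries kept, TMM scaling and edgeR also called Uvrag higher. Becn1, the scaffold of these complexes, was at -0.07 ± 0.11 (adjusted p = 0.654). Becn1, Pik3c3, Atg14 and Ambra1 are given here after their values were seen, as the rest of the group, and spanned log2-fold changes of -0.24 to 0.19.

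Of the 7 genes of lipid supply and PI3P binding, Atg2a and Wdr45 fell and none rose. Atg2a (chr19:6241668-6262335), which carries lipid from the endoplasmic reticulum, was in colonoids at 2362, 3263 and 3764 CP20M with Ve, 2537, 2421 and 2615 with R4 and 1139, 1366 and 1327 with R8. In tumoroids Atg2a was at 2164, 1652 and 3200 CP20M with Ve, 1597, 1936 and 2551 with R4 and 1076, 1194 and 1539 with R8. The R8 libraries lay below Ve in both genotypes, and the R4 libraries overlapped Ve in both (log2-fold change -0.64 ± 0.15 (SE), adjusted p = 0.00516, lower in 6 of 6 lines). Wdr45 (chrX:7714333-7728206), also called Wipi4, binds PI3P and Atg2 proteins, and was in colonoids at 729, 807 and 821 CP20M with Ve, 391, 594 and 764 with R4 and 283, 297 and 463 with R8. In tumoroids Wdr45 was at 791, 845 and 894 CP20M with Ve, 766, 832 and 768 with R4 and 536, 491 and 537 with R8. With R8 no library overlapped Ve, and over both genotypes Wdr45 was at 0.66-fold of vehicle (log2-fold change -0.60 ± 0.13 (SE), adjusted p = 0.00384). The paralog Atg2b had a log2-fold change of 0.09 ± 0.15 (adjusted p = 0.687), and Atg9a, Vmp1, Wipi1 and Wipi2 did not pass, with log2-fold changes between -0.41 and 0.06.

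Among the conjugation enzymes, 2 of the 4 Atg4 proteases fell, and the enzymes that build the conjugates did not pass. Atg4d (chr9:21265293-21277772) was in colonoids at 1785, 1877 and 1636 CP20M with Ve, 898, 1292 and 1022 with R4 and 1044, 1026 and 1140 with R8, and in tumoroids at 1674, 1578 and 1559 CP20M with Ve, 1118, 1162 and 1183 with R4 and 1161, 1210 and 1105 with R8. Every regorafenib library, at either dose, was below every Ve library of its genotype. Its adjusted p was the lowest of all members (log2-fold change -0.59 ± 0.08 (SE), adjusted p = 0.000176, lower in 6 of 6 lines), at 0.66-fold of vehicle. Atg4d overlaps Kri1 on the opposite strand, and whether reads were counted by strand is not given in the sources used here, so reads of the pair cannot be told apart. Atg4c (chr4:99193934-99259787) was in colonoids at 456, 452 and 534 CP20M with Ve, 196, 256 and 281 with R4 and 423, 385 and 394 with R8, and in tumoroids at 419, 428 and 397 CP20M with Ve, 268, 318 and 172 with R4 and 382, 409 and 254 with R8. Atg4c had its lowest mean with R4 in both genotypes, and its R8 values overlapped Ve in tumoroids. Over both genotypes Atg4c fell (log2-fold change -0.54 ± 0.14 (SE), adjusted p = 0.00979). Atg3, Atg4a, Atg4b, Atg5, Atg7, Atg12 and Atg16l1 had log2-fold changes of -0.58 (Atg3) to 0.26 (Atg16l1). The value of Atg3 includes the low-depth library, where it was 79 CP20M against 625 and 691 in the other R4 colonoids. Without that library Atg7, the activating enzyme, and Atg16l1 passed as higher, at 0.18 ± 0.07 (adjusted p = 0.0456) and 0.20 ± 0.07 (adjusted p = 0.0404).

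The Atg8 family split, with Map1lc3b lower and Gabarap higher. Map1lc3b (chr8:121590361-121598760), which encodes LC3B, was in colonoids at 5242, 3780 and 4027 CP20M with Ve, 2420, 3364 and 3779 with R4 and 2099, 1923 and 3061 with R8, and in tumoroids at 2794, 3169 and 3743 CP20M with Ve, 2659, 3091 and 3140 with R4 and 2578, 2057 and 2505 with R8. The R8 values lay below Ve in both genotypes, and the R4 values overlapped Ve in tumoroids. Over both genotypes Map1lc3b was at 0.72-fold of vehicle (log2-fold change -0.48 ± 0.13 (SE), adjusted p = 0.0129), lower in 6 of 6 lines, and it overlaps Zcchc14 on the opposite strand. Gabarap (chr11:69991143-69994951) was in colonoids at 4331, 3599 and 3039 CP20M with Ve, 3473, 4051 and 3922 with R4 and 3857, 3767 and 4740 with R8, and in tumoroids at 1837, 2404 and 2452 CP20M with Ve, 3123, 3052 and 2957 with R4 and 4032, 3074 and 3462 with R8. Every regorafenib tumoroid was above every Ve tumoroid, whereas in colonoids the groups overlapped. Gabarap rose over both genotypes (log2-fold change 0.34 ± 0.10 (SE), adjusted p = 0.0226), higher in 5 of 6 lines. Gabarapl1, at 0.34 ± 0.14 (adjusted p = 0.092), passed only with the line as a block, at 0.34 ± 0.10 (adjusted p = 0.0243). Gabarapl2 had a log2-fold change of 0.11 ± 0.15 (adjusted p = 0.61) and Map1lc3a at -0.14 ± 0.19 (adjusted p = 0.623), with lines on both sides of 0.

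No cargo receptor passed over both genotypes in the main fit. Sqstm1, which binds ubiquitinated cargo, was in colonoids at 16021, 11793 and 10735 CP20M with Ve, 36910, 17569 and 12970 with R4 and 7833, 9509 and 10637 with R8, and in tumoroids at 4827, 11888 and 12503 CP20M with Ve, 10125, 14644 and 13141 with R4 and 10292, 7931 and 9410 with R8. The value of 36910 is that of the low-depth library, and the groups overlapped in tumoroids. Over both genotypes Sqstm1 had a log2-fold change of 0.19 ± 0.23 (adjusted p = 0.581), and without that library at 0.08 ± 0.19 (adjusted p = 0.763). In colonoids all R8 values were below Ve. Sqstm1 overlaps Mrnip on the opposite strand. Calcoco1, a receptor for endoplasmic reticulum and Golgi, was at 0.45 ± 0.17 (adjusted p = 0.06) and passed with the block, at 0.45 ± 0.11 (adjusted p = 0.00987), and without the low-depth library, at 0.44 ± 0.17 (adjusted p = 0.048). Tax1bp1, a receptor for protein aggregates, was at -0.68 ± 0.28 (adjusted p = 0.0837), lower in 6 of 6 lines; its value in the low-depth library was 898 CP20M against 5753 and 4952 in the other R4 colonoids, and without it Tax1bp1 passed as lower at -0.47 ± 0.08 (adjusted p = 0.00041). Nbr1 also passed there, as higher, at 0.23 ± 0.07 (adjusted p = 0.0181). With all libraries kept, Calcoco1 and Nbr1 were called higher with TMM scaling and with edgeR, and Tax1bp1 lower with edgeR.

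**Figure D2:**
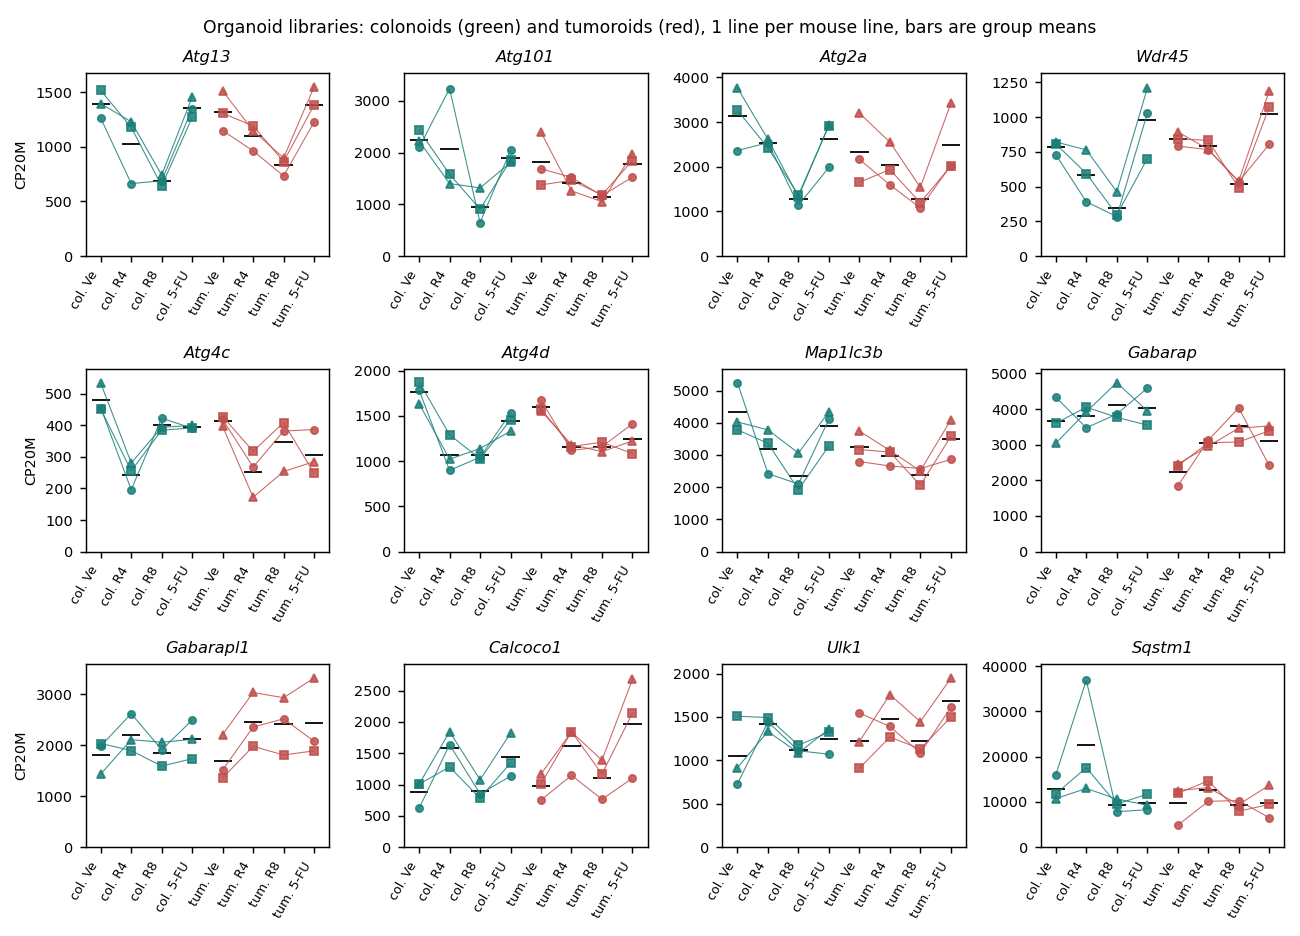
CP20M of 12 members in each of the 24 organoid libraries, colonoids in green and tumoroids in red, with a circle, square and triangle for the lines M41, M40 and M1 or F11, M3 and M14, thin lines joining the libraries of a line and black bars at the group means. Atg13, Atg2a, Wdr45 and Map1lc3b have their lowest group means with R8, Atg4d is below vehicle at both regorafenib doses, and the circle at 36910 for Sqstm1 is the low-depth library.

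Within colonoids 5 members fell and none rose: Atg13 (-0.74 ± 0.18, adjusted p = 0.0123), Atg2a (-0.77 ± 0.21, adjusted p = 0.0219), Wdr45 (-0.81 ± 0.19, adjusted p = 0.00927), Atg4d (-0.72 ± 0.12, adjusted p = 0.00127) and Map1lc3b (-0.67 ± 0.18, adjusted p = 0.0216), all by limma log2-fold change. Of all genes 9.2% were called lower and 5.92% higher, and the median was -0.10 over the members and -0.14 over all genes. TMM scaling moved the median of all genes in colonoids by 0.11, to -0.03; relative to it 1 member was higher (Uvrag, 0.39, adjusted p = 0.0242) and the same 5 were lower, against 17.5% of all genes. The higher share of all genes called in colonoids was 39.1% as deposited and 54.6% with TMM. Without the low-depth library 10 members were called, with Atg101, Atg4c and Tax1bp1 also lower and Pik3r4 and Uvrag higher, against 28.8% of all genes. Atg4c passed with the line as a block (-0.59 ± 0.16, adjusted p = 0.0263). Without M40 Atg4d alone kept its call, Atg2a also lost its call without M1, and Map1lc3b without M41 or the tumoroid M3. Of the genes followed whatever their result, Ulk1 had a log2-fold change of 0.33 ± 0.21 (adjusted p = 0.307), Sqstm1 at 0.12 ± 0.32 (adjusted p = 0.841), Gabarap at 0.13 ± 0.14 (adjusted p = 0.591), Gabarapl1 at 0.16 ± 0.20 (adjusted p = 0.634), Gabarapl2 at -0.10 ± 0.21 (adjusted p = 0.781) and Map1lc3a at -0.40 ± 0.27 (adjusted p = 0.346).

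Within tumoroids Atg4d fell (log2-fold change -0.46 ± 0.12 (SE), adjusted p = 0.0286) and Gabarap rose (log2-fold change 0.56 ± 0.14 (SE), adjusted p = 0.03), against 7.69% of all genes called, 3.27% lower and 4.42% higher. Both moved the same way in 3 of 3 lines, with line values of -0.55 to -0.41 for Atg4d and 0.35 to 0.94 for Gabarap. Leaving out any 1 tumoroid line ended both calls, as did leaving the low values in. With TMM scaling Atg13 was called lower as well (-0.43, adjusted p = 0.0492), which made 1 higher and 2 lower against 8.65% of all genes. With the line as a block Atg2a (-0.51 ± 0.15, adjusted p = 0.045) and Gabarapl1 (0.53 ± 0.14, adjusted p = 0.0363) joined them, against 11.4% of all genes, and without the low-depth library Atg13 and Tax1bp1 did, against 21.1%. That library is a colonoid and enters the tumoroid result only through the shared estimate of the spread. Map1lc3b had a log2-fold change of -0.28 ± 0.18 (adjusted p = 0.417), Ulk1 of 0.15 ± 0.21 (adjusted p = 0.758) and Sqstm1 of 0.26 ± 0.32 (adjusted p = 0.725), the last with 1 of 3 lines higher. Gabarapl2 was higher in 3 of 3 lines at 0.32 ± 0.21 (adjusted p = 0.399), and Map1lc3a in 1 of 3 at 0.11 ± 0.27 (adjusted p = 0.877).

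The difference between the genotypes was tested directly, and no member passed (adjusted p of 1.00 for all members, 0 of 37 with an unadjusted p under 0.05, and 0 with edgeR), against 0.00883% of all genes. For Gabarap the response in tumoroids minus that in colonoids was 0.43 with a 95% interval of -0.01 to 0.87, and for Map1lc3b it was 0.40 (-0.15 to 0.94). Atg13 had a difference of 0.28 (-0.25 to 0.81) and Atg4d of 0.25 (-0.11 to 0.61). The half-widths of these intervals had a median of 0.62 over the members. They take no account of the adjustment over all genes, so a difference larger than that could also go uncalled. The other genes followed had differences of -0.18 (Ulk1), 0.14 (Sqstm1), 0.37 (Gabarapl1), 0.43 (Gabarapl2) and 0.51 (Map1lc3a).

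Between the doses, 8 µM against 4 µM over both genotypes, Atg2a was lower at the higher dose and no other member passed, against 0.512% of all genes. Atg2a was 2421 to 2615 CP20M with R4 and 1139 to 1366 with R8 in colonoids, and 1597 to 2551 and 1076 to 1539 in tumoroids, with no overlap in either (log2-fold change -0.82 ± 0.17 (SE), adjusted p = 0.0467, lower in 6 of 6 lines). The call of Atg2a ended when any 1 of the 6 lines was left out (adjusted p 0.0846 to 0.218), with the pseudocount of 2 (adjusted p = 0.0508) and without the filter on low values (adjusted p = 0.12). Wdr45 had a log2-fold change of -0.64 ± 0.15 (adjusted p = 0.0786) and lower in 6 of 6 lines. With the line as a block Wdr45 (-0.64 ± 0.12, adjusted p = 0.0245) and Calcoco1 (-0.67 ± 0.13, adjusted p = 0.0239) were also lower with R8, against 2.14% of all genes. Without the low-depth library, an R4 library, 5 members were called, with Atg13 (-0.59 ± 0.10, adjusted p = 0.00981), Rb1cc1 (-0.50 ± 0.10, adjusted p = 0.0236), Wdr45 (-0.76 ± 0.12, adjusted p = 0.00787) and Atg2a lower and Uvrag higher (0.34 ± 0.07, adjusted p = 0.0314), against 1.84% of all genes. Sqstm1 had a log2-fold change of -0.79 ± 0.26 (adjusted p = 0.189), and at -0.58 ± 0.22 (adjusted p = 0.187) without it. Ulk1 had a log2-fold change of -0.30 ± 0.17 (adjusted p = 0.413), lower in 6 of 6 lines, Map1lc3b at -0.38 ± 0.15 (adjusted p = 0.25), Gabarap at 0.15 ± 0.12 (adjusted p = 0.53), Gabarapl1 at -0.14 ± 0.17 (adjusted p = 0.697), Gabarapl2 at -0.11 ± 0.17 (adjusted p = 0.767) and Map1lc3a at -0.01 ± 0.22 (adjusted p = 0.993).

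Between tumoroids and colonoids with vehicle no member passed by limma (2 of 37 members had an unadjusted p under 0.05, and edgeR called 1), against 1.4% of all genes. The nearest was Gabarap, at 4331, 3599 and 3039 CP20M in colonoids and 1837, 2404 and 2452 in tumoroids, with no overlap (log2-fold change -0.70 ± 0.17 (SE), adjusted p = 0.0509). Without the low-depth library, which enters only through the spread, Gabarap passed at -0.70 ± 0.15 (adjusted p = 0.0156) against 8.55% of all genes. Gabarapl2 did not overlap either, at 1782, 1462 and 1207 against 860, 917 and 948 CP20M (log2-fold change -0.68 ± 0.24 (SE), adjusted p = 0.179). The comparison of Gabarap in regorafenib tumoroids and this one share the tumoroid Ve libraries.

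5-FU raised 1 member, Calcoco1, against 3.08% of all genes, in a fit of all 24 organoid libraries. Calcoco1 (chr15:102706777-102722178) was at 620, 1007 and 1006 CP20M with Ve and 1133, 1345 and 1821 with 5-FU in colonoids, and at 752, 1008 and 1168 and 1102, 2141 and 2680 in tumoroids. Groups did not overlap in colonoids and overlapped in tumoroids, and every line rose (log2-fold change 0.82 ± 0.22 (SE), adjusted p = 0.0462, higher in 6 of 6 lines). The call of Calcoco1 ended when any line but F11 was left out (adjusted p 0.0857 to 0.268), with only the groups compared (adjusted p = 0.0741) and without the filter on low values (adjusted p = 0.126). With TMM scaling Calcoco1 did not pass either (0.81, adjusted p = 0.0557) and Atg4d was the member called, as lower (-0.34, adjusted p = 0.0303), against 3.51% of all genes. With the block 4 members were called, Calcoco1 (0.82 ± 0.12, adjusted p = 0.000895), Ulk2 (0.48 ± 0.12, adjusted p = 0.0187) and Gabarapl1 (0.36 ± 0.11, adjusted p = 0.0466) higher and Atg4d (-0.33 ± 0.09, adjusted p = 0.0397) lower, against 8.08% of all genes. Without the low-depth library, which has no part in this contrast beyond the spread, the 4 were Calcoco1, Ulk2, Wipi1 (0.62 ± 0.15, adjusted p = 0.0137) and Atg4d, against 9.72%. The labels of the 3 tumoroid 5-FU libraries give them as colonoids in their titles and as Apc-deficient in their genotype, and they were placed by genotype.

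Tested directly against 5-FU, regorafenib left 5 members lower and 1 higher, against 10.6% of all genes, 6.49% lower and 4.16% higher; with TMM the higher share of all genes called went from 39.1% to 57.1%, and 1 member was higher and 3 lower. Of the members called, Wdr45 differed most, at 1027, 700 and 1207 CP20M with 5-FU in colonoids and 803, 1071 and 1187 in tumoroids, against 283 to 764 and 491 to 832 with regorafenib (log2-fold change -0.86 ± 0.14 (SE), adjusted p = 0.000663). Atg13 had a log2-fold change of -0.61 ± 0.11 (adjusted p = 0.00196), Atg2a at -0.56 ± 0.16 (adjusted p = 0.0273), Map1lc3b at -0.46 ± 0.13 (adjusted p = 0.0242) and Atg4d at -0.26 ± 0.08 (adjusted p = 0.0469). With TMM scaling Atg2a (adjusted p = 0.0594) and Atg4d (adjusted p = 0.106) lost their calls, and Atg4d also lost its call with edgeR (adjusted p = 0.0584) and when any 1 line was left out. Atg13 and Wdr45 kept theirs without any 1 line, while Uvrag lost its call without M14, Map1lc3b without M41 or either M3 or M14 of the tumoroids, and Atg2a without M40, M1, F11 or M3. Uvrag was the member higher with regorafenib (log2-fold change 0.49 ± 0.10 (SE), adjusted p = 0.00371), higher in 6 of 6 lines; with 5-FU it was at 643, 717 and 589 CP20M in colonoids and 533, 656 and 482 in tumoroids. Blocked by line, 11 members were called, 2 higher and 9 lower, against 19.3% of all genes, and without the low-depth library 12 were, 2 higher and 10 lower, against 21.4%. The block added Atg3, Calcoco1, Pik3c3 and Wipi1 as lower and Optn, a receptor for ubiquitinated cargo, as higher (0.49 ± 0.16, adjusted p = 0.0407). Ulk1 had a log2-fold change of -0.15 ± 0.14 (adjusted p = 0.508), Sqstm1 at 0.35 ± 0.22 (adjusted p = 0.341), Gabarap at 0.03 ± 0.11 (adjusted p = 0.873), Gabarapl1 at -0.02 ± 0.15 (adjusted p = 0.962), Gabarapl2 at -0.21 ± 0.14 (adjusted p = 0.359) and Map1lc3a at -0.47 ± 0.22 (adjusted p = 0.178).

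**Figure D3:**
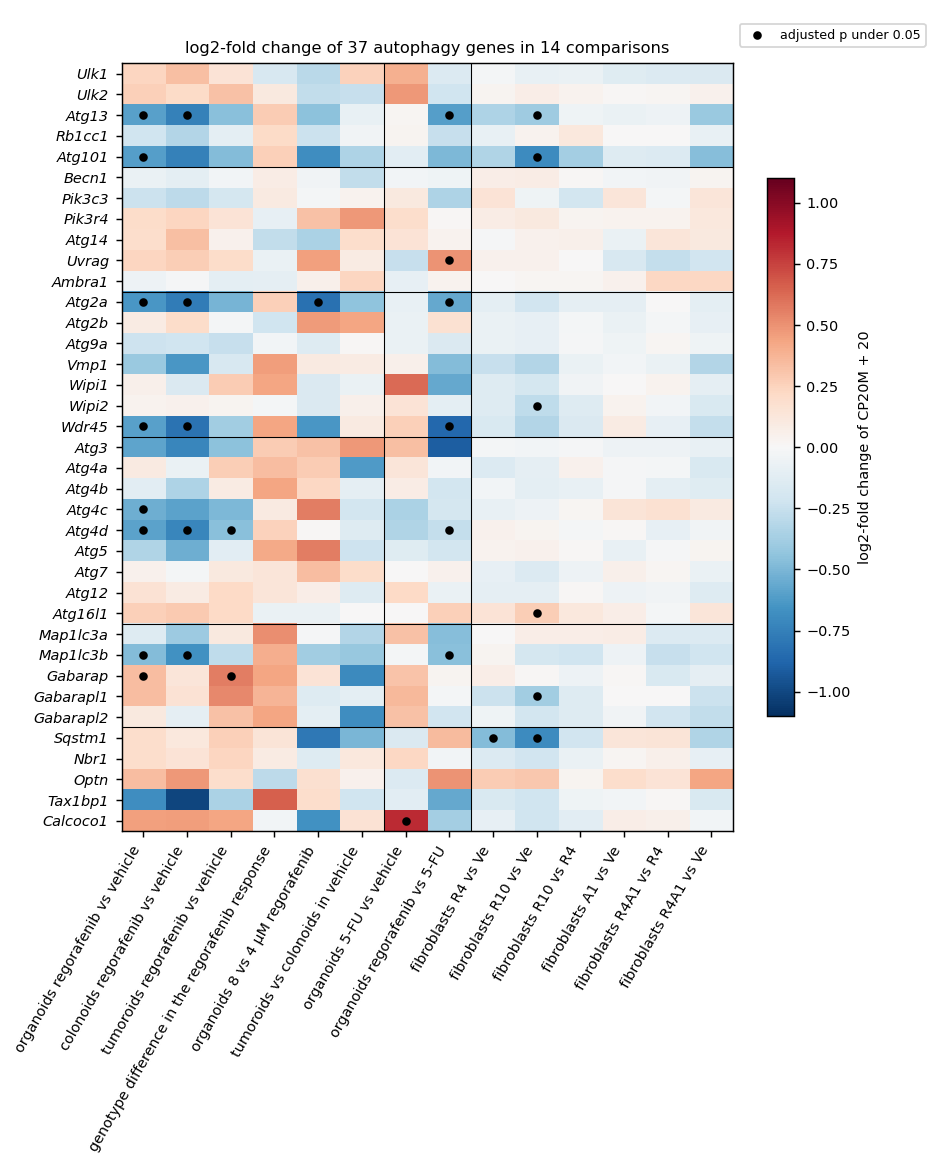
Log2-fold change of CP20M + 20 for the 37 tested members (rows, grouped by role) in the 14 comparisons (columns), red for higher and blue for lower in the group or drug named before vs, with a dot at an adjusted p under 0.05. Dots for Atg13, Atg2a, Wdr45, Atg4d and Map1lc3b recur in the organoid regorafenib columns, and the 3 columns with autogramin-2 hold none.

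Other genes of the pathway were followed in 4 lists, 58 genes in all, of which 57 were tested in organoids. With regorafenib 12 rose and 6 fell over both genotypes, against 11.2% of all genes higher and 15.3% lower, and with the line as a block 20 were called, against 30.8% of all genes. In the list of core paralogs and accessory factors 3 of 17 rose, among them Bcl2, which binds Becn1 (log2-fold change 1.19 ± 0.15 (SE), adjusted p = 7.68e-05), and Tecpr1, a tethering factor of autolysosomes (0.88 ± 0.13, adjusted p = 0.000234). Of 12 genes for fusion with the lysosome 5 rose and none fell, with the core HOPS and CORVET subunit Vps18 at 1.02 ± 0.13 (adjusted p = 7.68e-05); one of the 5, Vps16 (0.40 ± 0.14, adjusted p = 0.0494), lost its call with the block (adjusted p = 0.0689). Of 12 receptors for organelles 3 rose and 2 fell, with the endoplasmic reticulum receptor Retreg1 at 0.77 ± 0.16 (adjusted p = 0.00262). Of 16 upstream kinases and their partners 1 rose and 4 fell, with the AMPK subunit Prkab1 at -1.01 ± 0.12 (adjusted p = 5.48e-05) and the mTOR partner Deptor at -0.92 ± 0.17 (adjusted p = 0.00141). Within colonoids 7 of the 57 were higher and 6 lower, against 5.92% and 9.2% of all genes, and with the block 16 were called, against 19.7%. Within tumoroids 8 were higher and 4 lower, against 4.42% and 3.27% of all genes, and none passed the test of the genotype difference. In tumoroids Trp53inp2, a nuclear cofactor of autophagy, rose with regorafenib (0.82 ± 0.21, adjusted p = 0.0259), and it was also higher with 5-FU over both genotypes (0.64 ± 0.17, adjusted p = 0.0438) and lower in tumoroids than in colonoids with Ve (-1.14 ± 0.24, adjusted p = 0.0313). All of these Trp53inp2 comparisons share the tumoroid Ve libraries. Against 5-FU, 5 of the 57 were higher with regorafenib and 6 lower, against 4.16% and 6.49% of all genes, with Retreg1 at 0.89 ± 0.16 (adjusted p = 0.00145) and the paralog Atg9b at -0.72 ± 0.18 (adjusted p = 0.0156). Without the low-depth library 27 of the 57 were called for regorafenib over both genotypes, against 43.4% of all genes, and between the doses 0 were, as with it (2 with the block, against 2.14%).

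Of the marker lists for other cells, the macrophage list (8 genes) moved with R8 in the organoids. It summed to 427 to 513 CP20M with Ve and 596 to 3247 with R8 in colonoids, and to 509 to 573 and 854 to 1736 in tumoroids. Of its 8 genes, Csf1r and Cd68 alone had a median of at least 200 CP20M with R8, while Adgre1, C1qb, Lyz2 and either Tyrobp or C1qa were at 0 in all R8 libraries of a genotype. The lysosomal glycoprotein Cd68 ranged from 32 to 2659 CP20M over the organoids. Endothelial markers summed to at most 79 CP20M and smooth muscle and glial markers to at most 43. The part of these transcripts in the changes of the members was not tested.

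In fibroblasts, 4 µM regorafenib lowered 1 of the 37 tested members, Sqstm1, against 1.72% of 11032 genes. Sqstm1 (chr11:50199366-50210827) was at 25701, 23808, 23889 and 18760 CP20M with Ve, 17644, 15278, 17376 and 15619 with R4 and 15008, 13378 and 14336 with R10. Neither dose overlapped Ve, and the R10 values were below all R4 values. The group means were 23040 ± 2984 (SD, n = 4) CP20M with Ve, 16480 ± 1203 (SD, n = 4) with R4 and 14240 ± 819 (SD, n = 3) with R10 (log2-fold change -0.48 ± 0.10 (SE), adjusted p = 0.0266 for R4, lower in 4 of 4 lines). Blocked by line, 6 members were called, against 23.2% of all genes: Sqstm1, Atg13 (-0.34 ± 0.06, adjusted p = 0.000448), Vmp1 (-0.25 ± 0.08, adjusted p = 0.0368), Gabarapl1 (-0.24 ± 0.07, adjusted p = 0.0293) and Tax1bp1 (-0.17 ± 0.05, adjusted p = 0.0168) lower, and Optn (0.28 ± 0.07, adjusted p = 0.00996) higher. Leaving out line M3, M3(2) or M1(2) ended the call of Sqstm1 (adjusted p up to 0.325), and leaving out M11 did not; fitting the Ve and R4 libraries alone ended it too (adjusted p = 0.197). Among the members followed throughout, Ulk1 had a log2-fold change of -0.02 ± 0.09 (adjusted p = 0.966), Map1lc3b at 0.03 ± 0.08 (adjusted p = 0.931), Gabarap at 0.07 ± 0.08 (adjusted p = 0.784), Gabarapl1 at -0.24 ± 0.10 (adjusted p = 0.265), Gabarapl2 at -0.05 ± 0.14 (adjusted p = 0.923) and Map1lc3a at 0.00 ± 0.14 (adjusted p = 0.995). Over the members the median was -0.07, and over all genes 0.00.

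With 10 µM, tested in 3 lines against the 4 Ve lines, 5 members fell and 1 rose, against 14.4% of all genes, 7.99% lower and 6.45% higher. The 6 members of 37 are thus near the share of all genes, of which 44.7% of calls were higher as deposited and 56.9% with TMM, while the members called were the same. Sqstm1 fell again (log2-fold change -0.69 ± 0.11 (SE), adjusted p = 0.000926), to 0.62-fold of vehicle. Atg101 was at 385, 389, 403 and 304 CP20M with Ve, 268, 348, 332 and 227 with R4 and 202, 203 and 259 with R10. All R10 values lay below all Ve values (log2-fold change -0.69 ± 0.17 (SE), adjusted p = 0.0142, lower in 3 of 3 lines), the lowest Ve value being that of M11, which has no R10 library. Atg13 was at 663, 799, 805 and 828 CP20M with Ve, 483, 669, 621 and 658 with R4 and 553, 595 and 601 with R10 (log2-fold change -0.39 ± 0.12 (SE), adjusted p = 0.0451). Gabarapl1 (chr6:129533160-129542346) was at 2970, 3049, 2983 and 2975 CP20M with Ve, 2388, 2277, 3018 and 2510 with R4 and 2173, 2384 and 2360 with R10 (log2-fold change -0.38 ± 0.10 (SE), adjusted p = 0.0228), and it overlaps 1700101I11Rik on the opposite strand. R10 and Ve did not overlap for Atg13 or Gabarapl1. Wipi2 (chr5:142627698-142670588), the PI3P binder that recruits Atg16l1, was at 2668, 3083, 2928 and 2558 CP20M with Ve, 2347, 2633, 2720 and 2492 with R4 and 2282, 2365 and 2263 with R10 (log2-fold change -0.28 ± 0.08 (SE), adjusted p = 0.0212), without overlap of R10 and Ve. Atg16l1 (chr1:87755870-87792428) was the member that rose, at 627, 635, 581 and 619 CP20M with Ve, 694, 697, 653 and 700 with R4 and 713, 842 and 695 with R10 (log2-fold change 0.27 ± 0.08 (SE), adjusted p = 0.0286).

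Pairing by line raised the R10 count to 13 members, 4 higher and 9 lower, against 42.4% of all genes. The added members were Map1lc3b (-0.20 ± 0.07, adjusted p = 0.0312), Tax1bp1 (-0.25 ± 0.05, adjusted p = 0.00123), Vmp1 (-0.40 ± 0.09, adjusted p = 0.00218) and Wdr45 (-0.34 ± 0.13, adjusted p = 0.0489) as lower, and Optn (0.39 ± 0.08, adjusted p = 0.000909), Pik3r4 (0.21 ± 0.06, adjusted p = 0.00955) and Ulk2 (0.20 ± 0.06, adjusted p = 0.0149) as higher. The block was fitted over all 19 fibroblast libraries, so M11, which has no R10 library, enters through its other treatments. Without M3, M3(2) or M1(2) the unblocked count was 1 or 2, and without M11 it was 9. Of the 6 members called for R10, Sqstm1 alone kept its call without any 1 line; Atg13 kept it only without M3, and Atg101, Gabarapl1, Wipi2 and Atg16l1 only without M11. Of the other members followed, Ulk1 had a log2-fold change of -0.08 ± 0.10 (adjusted p = 0.669), Map1lc3b at -0.19 ± 0.09 (adjusted p = 0.156) without the block, Gabarap at 0.01 ± 0.08 (adjusted p = 0.947), Gabarapl2 at -0.20 ± 0.15 (adjusted p = 0.443) and Map1lc3a at 0.07 ± 0.15 (adjusted p = 0.813). Between R10 and R4 no member passed by limma (1 of 37 with an unadjusted p under 0.05, 0 with edgeR), against 0.245% of all genes, and the estimates ran from -0.37 to 0.12 on the log2 scale. With the block Atg101 (-0.45 ± 0.14, adjusted p = 0.0326), Map1lc3b (-0.23 ± 0.07, adjusted p = 0.035) and Sqstm1 (-0.27 ± 0.07, adjusted p = 0.0149) were lower with R10, against 18.7% of all genes. Without it these were at -0.37 ± 0.17 (adjusted p = 0.413), -0.22 ± 0.09 (adjusted p = 0.309) and -0.21 ± 0.11 (adjusted p = 0.487), Ulk1 at -0.07 ± 0.10 (adjusted p = 0.856), Gabarap at -0.06 ± 0.08 (adjusted p = 0.852), Gabarapl1 at -0.14 ± 0.10 (adjusted p = 0.663), Gabarapl2 at -0.14 ± 0.15 (adjusted p = 0.774) and Map1lc3a at 0.07 ± 0.15 (adjusted p = 0.909). R4 and R10 share the Ve libraries.

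**Figure D4:**
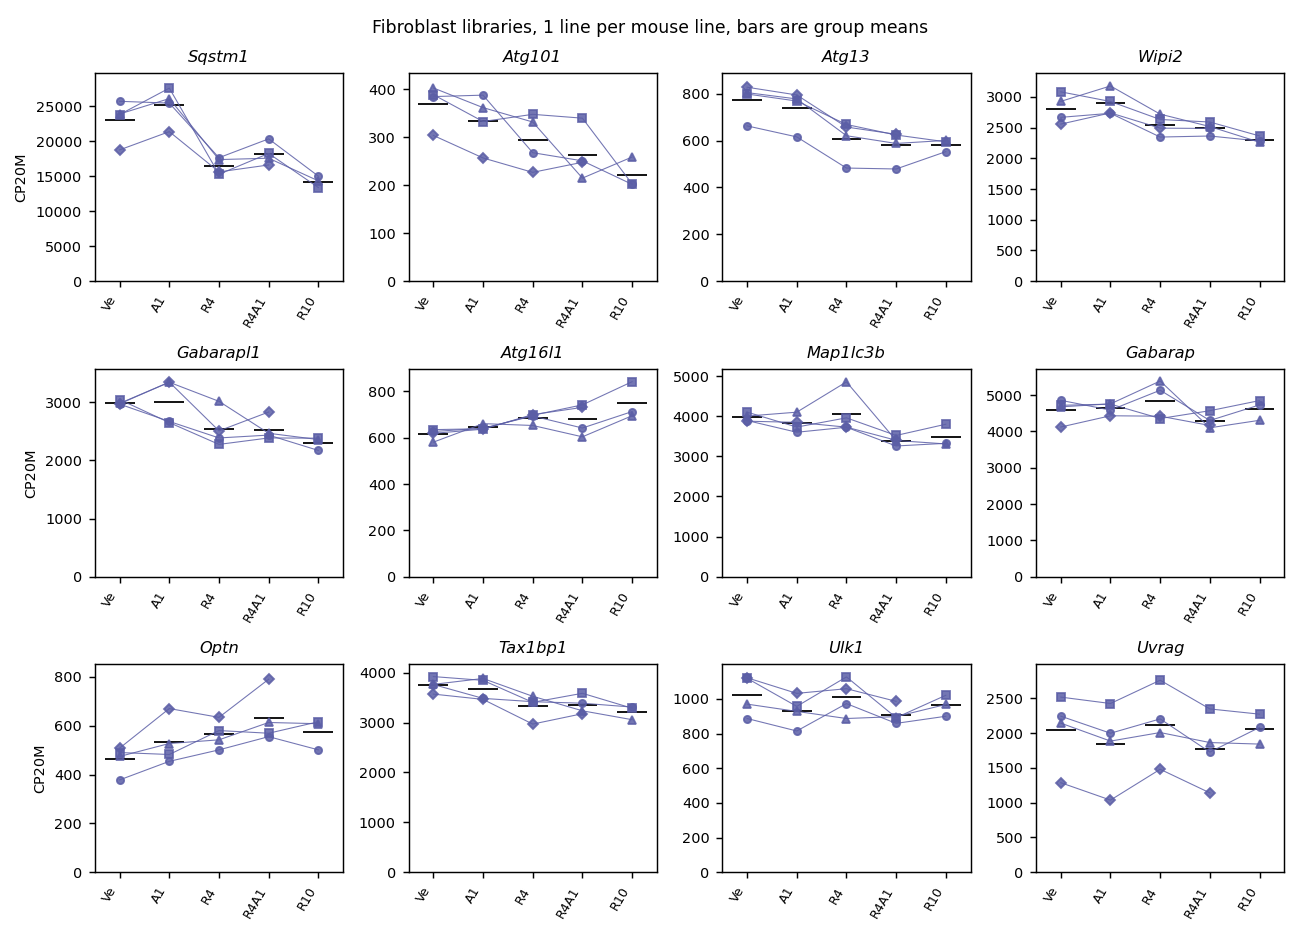
CP20M of 12 members in each of the 19 fibroblast libraries, with a circle, square, triangle and diamond for the lines M3, M3(2), M1(2) and M11, thin lines joining the libraries of a line and black bars at the group means. Sqstm1 lies between 13378 and 17644 with R4 or R10 and between 18760 and 27587 with Ve or A1, and M11 has no R10 library.

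Other cell types were represented in the fibroblast cultures, and the summed macrophage markers were lower with R10 and R4A1 than with Ve in every library. The macrophage list summed to 1075 to 6115 CP20M with Ve, 646 to 2103 with R4, 590 to 621 with R10, 769 to 3986 with A1 and 452 to 720 with R4A1, and Csf1r and Lyz2 alone of its 8 genes had a median of at least 200 CP20M in each group. Endothelial markers (5 genes) summed to 1136 to 9596 with Ve, 1838 to 25819 with R4, 1531 to 6325 with R10, 905 to 6576 with A1 and 2006 to 16663 with R4A1. Smooth muscle and glial markers (4 genes) summed to 1657 to 11248 with Ve, 4378 to 13835 with R4, 3734 to 8064 with R10, 1695 to 12749 with A1 and 2772 to 12126 with R4A1. Against Ve of the same line, the endothelial sum was higher with R4 and lower with A1 in every line, and went both ways with R10 and R4A1. The smooth muscle and glial sum was higher with R4, R10 and R4A1 in every line. The macrophage sum was lower with R4 in every line. No gene of the endothelial, smooth muscle or glial lists was at 0 in all libraries of a group, and C1qa of the macrophage list was at 0 in all R10 libraries. The part of these cells in the values of the members was not tested.

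Autogramin-2 alone gave no call in fibroblasts among the members or among all 11032 genes (0.0%). By limma 0 members and 120 genes had an unadjusted p under 0.05, and edgeR called 0 of either. Estimates over the 37 members ran from -0.18 (Uvrag) to 0.19 (Optn) on the log2 scale, and the 95% intervals had a median half-width of 0.26. The widest reach was -0.75 for Uvrag downwards and 0.56 for Atg4c upwards, so this fit bounds a change of these members only to within such limits. It has no term for the line, and its intervals include the spread between lines. Line by line, A1 against Ve was -0.31 to -0.05 for Uvrag and 0.03 to 0.23 for Atg4c. Sqstm1 was at 25701, 23808, 23889 and 18760 CP20M with Ve and 25444, 27587, 26089 and 21369 with A1, with overlap and an interval of -0.09 to 0.35. Map1lc3b was at 3892, 4102, 4003 and 3875 with Ve and 3600, 3729, 4100 and 3847 with A1, also with overlap (-0.22 to 0.11). Ulk1 had an interval of -0.33 to 0.07, Gabarap of -0.15 to 0.18, Gabarapl1 of -0.21 to 0.20, Gabarapl2 of -0.33 to 0.25 and Map1lc3a of -0.21 to 0.37. Ulk1 was lower in 4 of 4 lines, at -0.13 ± 0.09 (adjusted p = 1).

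Added to 4 µM regorafenib, autogramin-2 gave no call among the members by limma (3 of 37 with an unadjusted p under 0.05, 0 with edgeR), against 0.00906% of all genes. Estimates of R4A1 against R4 ran from -0.26 (Uvrag) to 0.23 (Ambra1). Intervals, again with no term for the line, reached from -0.84 (Uvrag) to 0.58 (Atg4c). Map1lc3b was at 3725, 3959, 4855 and 3727 CP20M with R4 and 3258, 3520, 3394 and 3400 with R4A1. The groups did not overlap, and the estimate was -0.25 ± 0.08 (adjusted p = 0.861), lower in 4 of 4 lines. With the line as a block Map1lc3b (-0.25 ± 0.07, adjusted p = 0.0434) and Uvrag (-0.26 ± 0.07, adjusted p = 0.0412) were called lower with R4A1 than with R4, against 4.0% of all genes. Uvrag was at 2204, 2760, 2008 and 1480 with R4 and 1141 to 2347 with R4A1, so the range over lines was wider than the shift between the groups. Sqstm1 was at 20335, 18252, 17570 and 16608 with R4A1, higher in 4 of 4 lines against R4 (0.14 ± 0.10, adjusted p = 0.943). Ulk1 had a log2-fold change of -0.15 ± 0.09 (adjusted p = 0.919), Gabarap at -0.17 ± 0.08 (adjusted p = 0.87), Gabarapl1 at 0.00 ± 0.10 (adjusted p = 1), Gabarapl2 at -0.21 ± 0.14 (adjusted p = 0.919) and Map1lc3a at -0.15 ± 0.14 (adjusted p = 0.971).

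The combination against vehicle also gave no call among the members by limma (10 of 37 with an unadjusted p under 0.05, 0 with edgeR), against 2.89% of all genes. Atg13 was nearest, at 663, 799, 805 and 828 CP20M with Ve and 479, 624, 588 and 627 with R4A1 (log2-fold change -0.41 ± 0.12 (SE), adjusted p = 0.068), followed by Sqstm1 (-0.33 ± 0.10, adjusted p = 0.0967) and Optn (0.43 ± 0.13, adjusted p = 0.102), which are named after their values were seen. Of the members named for this comparison, Atg13, Optn, Map1lc3b and Gabarapl1 did not overlap between the groups. With the line as a block 12 members were called, 2 higher and 10 lower, against 27.2% of all genes. Higher were Optn (0.43 ± 0.07, adjusted p = 0.000391) and the Becn1 regulator Ambra1 (0.23 ± 0.08, adjusted p = 0.0407); lower were Atg13, Atg101, Uvrag, Vmp1, Wipi2, Map1lc3b, Gabarapl1, Gabarapl2, Sqstm1 and Tax1bp1, with estimates from -0.47 (Atg101) to -0.17. Ulk1 had a log2-fold change of -0.16 ± 0.09 (adjusted p = 0.406), Gabarap at -0.10 ± 0.08 (adjusted p = 0.579), Map1lc3b at -0.22 ± 0.08 (adjusted p = 0.145), Gabarapl1 at -0.24 ± 0.10 (adjusted p = 0.194), Gabarapl2 at -0.27 ± 0.14 (adjusted p = 0.337) and Map1lc3a at -0.15 ± 0.14 (adjusted p = 0.653). The R4 and R4A1 comparisons share the Ve libraries, and Sqstm1 was at -0.48 in the first and -0.33 in the second.

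**Figure D5:**
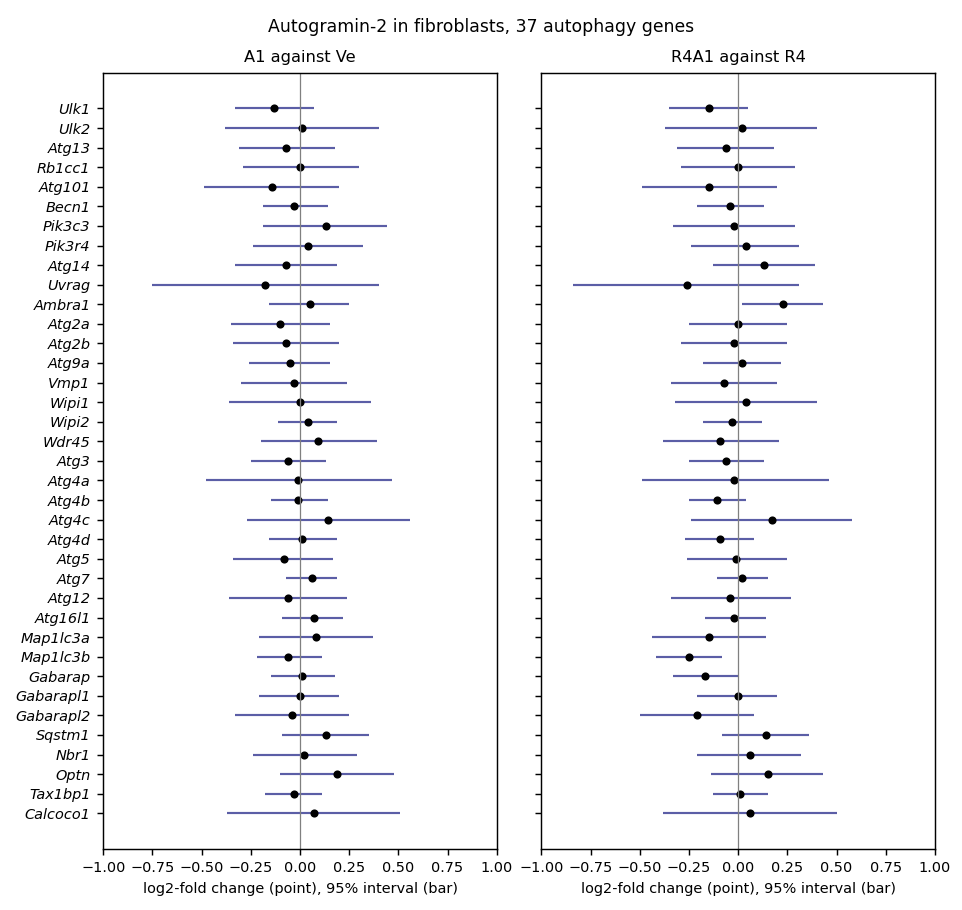
Log2-fold change (point) and 95% interval (bar) of the 37 tested members for A1 against Ve and for R4A1 against R4 in 4 fibroblast lines each. The intervals are from the fit with no term for the line. All 37 intervals of A1 against Ve cross 0, and 3 of R4A1 against R4 do not: those of Map1lc3b, Gabarap and Ambra1.

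Of the other pathway genes, 56 of 58 were tested in fibroblasts. R4 raised 1, the catalytic AMPK subunit Prkaa2 (log2-fold change 0.90 ± 0.22 (SE), adjusted p = 0.0474), which also rose with R10 (1.75 ± 0.24, adjusted p = 0.000204) and with R4A1 against Ve (0.96 ± 0.22, adjusted p = 0.0283). R10 raised 5 and lowered 2 of the 56, against 6.45% of all genes higher and 7.99% lower. The other catalytic AMPK subunit, Prkaa1, fell (-0.45 ± 0.07, adjusted p = 0.000935), as did the mitophagy receptor Fundc1 (-0.46 ± 0.13, adjusted p = 0.0234). Ei24, an endoplasmic reticulum membrane protein, was at 0.42 ± 0.11 (adjusted p = 0.0143), the stress sensor Sesn2 at 0.42 ± 0.13 (adjusted p = 0.0429) and the ubiquitin-binding receptor Tollip at 0.24 ± 0.07 (adjusted p = 0.0208). None of the 12 genes for fusion with the lysosome passed in any fibroblast comparison without the block, and no gene of the 56 was called for A1 against Ve, R4A1 against R4 or R10 against R4. With the block 23 of the 56 were called for R10, against 42.4% of all genes, 9 for R4 (23.2%), 11 for R4A1 against Ve (27.2%), 11 for R10 against R4 (18.7%) and 3 for R4A1 against R4 (4.0%), where the shares are those of all genes.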

How the data were processed

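Total RNA of 24 organoid and 19 fibroblast cultures was sequenced. The study's methods and the submitters' processing notes give Trimmomatic 0.36, STAR 2.5.3a, HTSeq 0.9.1 and GRCm38. The deposited signal values are counts that the authors scaled to 20000000 per library and rounded up (CP20M). The columns sum to about that total and their steps are the same for genes of any length, so they are not divided by gene length. The study's methods name a directional library kit for the organoids, and the labels name a different kit. The strand setting of the counting is not given in the sources used here. Besides Atg4d, Map1lc3b, Sqstm1 and Gabarapl1, other members overlap genes on the opposite strand, among them Uvrag, Optn, Tax1bp1 and Pik3r4. Columns of the authors' comparisons were not used.

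From these values, log2(CP20M + 20) was fitted with limma 3.58.1 (trend, R 4.3.3) over genes with at least 200 CP20M in 2 libraries, with Benjamini-Hochberg adjustment over all genes tested and a threshold of 0.05. Organoid regorafenib comparisons used 18 libraries and those with 5-FU 24. Fibroblasts used all 19. Fold changes are on the log2(CP20M + 20) scale, which understates the change of low genes. Whole reads were estimated from the CP20M steps and tested with edgeR 4.0.16 as an alternative. The library total was chosen to fit those steps, so the share of values left whole (99.4% to 100%) is no check on it. Where 1 read is worth about 1 CP20M or less, as in the library of highest depth (0.894), nearly any value is whole. The 2 tables were scaled separately and no test crosses them. The fits were tested on simulated data with planted changes larger than those of the members called and no effect of the line. That test does not cover changes of the size seen here or libraries that share a line.

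Each line is 1 mouse, and libraries of a line share its number, so lines pair the samples. The mean correlation of deviations within a line was 0.429 over the 18 organoid libraries (0.00865 to 0.887), 0.503 over the 24 and 0.719 in fibroblasts, against -0.213, -0.249 and -0.229 between lines. In the organoids lines are nested in the genotypes. The study's methods name no block, and the main fits have none. Values with the line as a block are printed where they change the call of a member or a named gene.

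No 2 libraries of a group agreed within sampling noise (51 pairs, lowest chi-square per gene 8.18). Estimated depth was 512591 to 22369830 reads in organoids (median 15697887) and 7949841 to 12825912 in fibroblasts (median 9039137). Gene lengths and positions are from GENCODE M21 on GRCm38, which held 52403 of the 52636 genes and all 38 members. The members and lists were chosen with earlier results of these data known. In each comparison the text names all members past the threshold (at most 12). In the regorafenib and autogramin-2 comparisons it also names the 5 Atg8 genes, Ulk1 and Sqstm1 whatever their result. Of the other pathway genes it names at most the 6 largest changes past the threshold. Members named for an alternative were chosen after their values were seen. Alternatives were another pseudocount (2 CP20M), no filter on low values, TMM scaling, edgeR and the block. Further ones were all 24 organoid libraries, only the groups compared, the study's thresholds on fold and adjusted p, and leaving out each line. Leaving out the library of lowest depth was chosen after seeing the data.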

Additional observations from a re-analysis of the deposited data

Results flagged for a closer look

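In 12 of 152 groups of 4 fibroblast lines, 1 line lay farther from the other 3 than a range test at 95% allows, and chance alone would flag about 1 group in 20, or 7.6 of them. The other groups hold 3 lines and were not tested.

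Line M3 was low for Atg13 with Ve (663 CP20M, the others 799 to 828) and with A1 (616, the others 769 to 795), and for Becn1 with A1 (1919, the others 2226 to 2290). Line M11 was low with Ve for Atg101 (304, the others 385 to 403) and Atg5 (492, the others 584 to 601), and with A1 for Atg10 (89, the others 123 to 128). Line M1(2) was high with A1 for Wdr45 (423, the others 331 to 337), Atg3 (984, the others 742 to 778) and Atg16l1 (661, the others 637 to 641), and low with R4 for Atg16l1 (653, the others 694 to 700). Line M3(2) was high for Atg4d with A1 (487, the others 413 to 418) and for Gabarapl1 with Ve (3049, the others 2970 to 2983). Of the 12, 7 were in the A1 group, where no member was called. No member's response differed between the genotypes by the test of the difference.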

How the results depend on the processing

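The 30 calls of single members were recomputed under each alternative, which gave 399 values. Of these 283 kept their direction and their call, 116 kept the direction and lost the call, and 0 reversed. Single calls were lost most often by leaving out a line (67), then under the study's thresholds on fold and adjusted p (24). Next came no filter on low values (13), only the groups compared (5), TMM scaling (4), edgeR (2) and the pseudocount of 2 CP20M (1). None were lost with the block. Counts are of members called, and "both genotypes" stands for regorafenib against vehicle in all organoids.

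The study's thresholds were an adjusted p under 0.001 and a log2-fold change of at least 0.585 for regorafenib in organoids. For the genotypes in vehicle they were 0.01 and 1, and for fibroblasts 0.05 and 0.585. The last pair was applied here to the 5-FU comparisons as well. These thresholds left 1 for both genotypes, 0 in colonoids, 0 in tumoroids, 0 between organoid doses, 2 against 5-FU, 0 for fibroblast R4 and 2 for R10. For both genotypes Atg13, Atg101, Atg2a and Wdr45 passed the threshold on fold and missed that on adjusted p. Without the filter on low values, where many more low genes enter the adjustment, 0 were called in tumoroids, 0 between organoid doses, 0 for 5-FU, 3 for regorafenib against 5-FU, 0 for fibroblast R4 and 2 for R10. The pseudocount of 2 gave 0 between organoid doses. TMM scaling and edgeR each gave 3 there and 1 between tumoroids and colonoids in vehicle, edgeR gave 4 for 5-FU, and the fit of all 24 organoid libraries gave 1 between the genotypes in vehicle. With only the groups compared, 0 were called for 5-FU and 0 for fibroblast R4.

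With the line as a block, the counts were 4 in tumoroids, 3 between organoid doses, 4 for 5-FU, 11 for regorafenib against 5-FU, 6 for fibroblast R4, 13 for R10, 3 for R10 against R4, 2 for R4A1 against R4 and 12 for R4A1 against Ve; the block ended no call of a member. Without the library of lowest depth they were 16 for both genotypes, 10 in colonoids, 4 in tumoroids, 5 between doses, 1 between genotypes in vehicle, 4 for 5-FU and 12 against 5-FU. The cause of these shifts was not tested.

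Leaving out each line in turn gave 5 to 13 for both genotypes (5 without tumoroid M14, 13 without colonoid M41), 1 to 7 in colonoids (1 without M40), 0 to 5 in tumoroids (5 without colonoid M41, 0 without any 1 tumoroid line), 0 to 0 for the genotype difference, 0 to 3 between doses (never with Atg2a, the call with all lines), 0 to 2 between genotypes in vehicle, 0 to 2 for 5-FU (with Calcoco1 only without F11) and 3 to 8 against 5-FU. In fibroblasts it gave 0 to 1 for R4, 1 to 9 for R10, 0 to 0 for R10 against R4, A1 and R4A1 against R4, and 0 to 2 for R4A1 against Ve.

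Depth limits low members most in colonoid M41 with R4, where 1 read is 39.017 CP20M. Atg10 stayed under the filter at every depth. With 3 or 4 lines in a group, the p-values of the main fits measure the spread between libraries within groups, each a different line. They take no account of libraries that share a line across groups.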
